A study of Mus musculus with 27 samples.

Results

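The 10 genes described here act on the matrix outside the cell: the metalloproteinases Mmp3, Mmp9, Mmp10, Mmp13 and Mmp14, the tissue inhibitors of metalloproteinases Timp1, Timp2 and Timp3, and urokinase (Plau) with its receptor (Plaur). They were taken by exact symbol from a table of 55401 mouse genes, and each symbol matched 1 gene. All values come from poly-A selected RNA of 4T1 cells, an established mouse mammary carcinoma line, in 27 libraries that form 9 groups of 3. In the knockout arm, wild-type parental cells stood beside 6 lines with a CRISPR knockout of a mitochondrial fission gene. These were gs1B8 and gs2_B4 for Drp1 (gene symbol Dnm1l), gs1_B11 and gs2_F6 for Fis1, and gs1_B4 and gs1_C8 for Mff. Each line is 1 clone, so its 3 libraries are not 3 independent knockouts, and the clone codes could not be tied to the numbered clones of the sample titles. Replicate numbers below follow the order of the columns and could not be tied to the titled replicates. In the drug arm, wild-type cells had received leflunomide or its vehicle DMSO for 3 days. Nothing in the labels says that the 3 libraries of a group were separate cultures, so p-values cover no more than the spread among these libraries, which may be technical.

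Metalloproteinases are made as inactive precursors and cut collagens, laminins, proteoglycans and many non-matrix proteins once their propeptide is removed. TIMP proteins bind the active site and block it, while urokinase held by its receptor at the cell surface converts plasminogen to plasmin, which degrades fibrin and can activate several of the metalloproteinases. In mammary carcinomas this set of proteases is known for its part in invasion and in the release of matrix-bound growth factors.

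The genes of 3 of the secreted enzymes lie in the metalloproteinase cluster of chromosome 9. In GRCm38 coordinates, Mmp13 is at chr9:7272514-7283331, Mmp3 at chr9:7445822-7455975 and Mmp10 at chr9:7502352-7510240, all on the plus strand. Mmp9 is at chr2:164940780-164955850, Mmp14 at chr14:54431612-54445364 and Plau at chr14:20836660-20843385. Timp1 is at chrX:20870166-20874735, Timp2 at chr11:118301069-118355740 on the minus strand, Timp3 at chr10:86300372-86349506 and Plaur at chr7:24462484-24475968. Exons of 9 of the 10 genes overlapped no exon of another gene in GENCODE M21, and Timp3 shared exon sequence with Syn3 on the opposite strand.

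Promoter windows of RefSeq (GRCm38.p6, 250 bases before to 50 after the annotated start) matched 8 of the 10 genes by symbol, all but Mmp9 and Plau. The AP-1 motif TGAGTCA, whose reverse complement is TGACTCA, was present in 4 of these 8 windows and in 5.20% of all 32851 windows. Those 4 are shown because Mmp10, Mmp13 and Plaur formed the 3 closest pairs of levels over the libraries and Mmp3 shares reads with Mmp10. They were chosen after these values were seen. Each line gives the 120 bases before the RefSeq start on the coding strand, 5′ to 3′, with the AP-1 motif and the TATA box motif TATAAA in capitals.
Mmp3 (chr9:7445702-7445821, plus strand): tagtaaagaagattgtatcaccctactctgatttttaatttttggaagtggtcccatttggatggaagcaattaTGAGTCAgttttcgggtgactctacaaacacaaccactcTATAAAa
Mmp10 (chr9:7502222-7502341, plus strand): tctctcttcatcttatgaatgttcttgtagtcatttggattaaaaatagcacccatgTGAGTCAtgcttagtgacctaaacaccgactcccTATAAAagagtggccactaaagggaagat
Mmp13 (chr9:7272394-7272513, plus strand): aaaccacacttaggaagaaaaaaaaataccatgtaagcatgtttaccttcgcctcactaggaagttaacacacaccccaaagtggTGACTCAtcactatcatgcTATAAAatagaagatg
Plaur (chr7:24462363-24462482, plus strand): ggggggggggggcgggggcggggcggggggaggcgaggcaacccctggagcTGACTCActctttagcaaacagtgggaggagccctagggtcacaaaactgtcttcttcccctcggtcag

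Counted from the RefSeq start, with the base before it as -1, the AP-1 motif (both strands searched) ran from -46 to -40 in Mmp3, from -63 to -57 in Mmp10, from -35 to -29 in Mmp13 and from -69 to -63 in Plaur. The TATA box motif stood in the windows of Mmp3, Mmp10 and Mmp13 and in 13.6% of all windows. The other motifs searched on both strands were the PEA3 motif AGGAAG, found in 6 of the 8 windows and 35.4% of all windows, and the GC box GGGCGG, found in 5 of the 8 and 35.7% of all. The NF-kappaB motif was in 0 of the 8 windows and in 0.41% of all windows. Matches of different motifs did not overlap in these 8 windows, and a pair of GC boxes in Plaur shared 1 base. A match describes letters in these windows and is no measurement of binding.

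Each of the 21 knockout-arm libraries held between 20715428 and 31295937 counts and each of the 6 others between 18492020 and 24658747, and no pair of replicates agreed within sampling noise. Levels are CPM (normalised counts, each divided by the effective size of its library) with factors estimated over all 27 libraries, and fold changes come from the fit of each arm, so they can differ slightly from ratios of mean CPM. Dnm1l, Fis1 and Mff were each lowest in their own 2 clones, with Dnm1l between 40.4 and 70.7 CPM there against 213 to 222 CPM in parental cells, Fis1 between 16.1 and 21.3 against 43.9 to 51.7, and Mff between 40.5 and 47.9 against 79.4 to 89.9. Of 8 mammary carcinoma markers, 7 averaged at least 1 CPM in every group, and Krt5 reached at most 0.0604 CPM. Of 6 fibroblast markers, Pdgfra was at 2.07 to 7.96 CPM in every library, the other 5 stayed at or below 0.553 CPM, and Lum and Thy1 had 0 counts throughout. Of 6 macrophage markers, Cd14 (5.21 to 19.1 CPM), Cd68 (2.97 to 9.38 CPM) and Csf1r (0.62 to 9.22 CPM) were present in every library, Ptprc and Lyz2 stayed at or below 0.202 CPM and Adgre1 had 0 counts. The neutrophil markers summed to at most 0.516 CPM and the endothelial markers to at most 0.462 CPM in any library. The 45S ribosomal RNA precursor took 23.2% of all counts in DMSO replicate 3 and 1.60% to 5.72% in the remaining 26 libraries. In such bulk samples, fewer cells that express a gene and less RNA per cell cannot be told apart.

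Compared per kilobase of exon, the inhibitor Timp2 and urokinase were the most abundant of the 10 genes in parental cells, at a mean of 104 and 96.1 CPM per kb, followed by Timp1 at 76.6. Plaur and Mmp9 stood at 24.1 and 23.7 CPM per kb, Mmp14 at 16.2, Mmp10 at 9.97, Mmp3 at 7.48 and Mmp13 at 0.513. In the Drp1 and Fis1 clones this order changed, since Mmp9 reached 99.96 CPM per kb in gs1B8, 63.1 in gs2_B4, 104 in gs1_B11 and 105 in gs2_F6. Timp3, an inhibitor that stays bound to the matrix, had 0 to 2 counts in every library and was not tested. It had 0 counts in all 3 libraries of gs2_F6, which allows up to 3 counts over that group, and 2 counts over the parental group.

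**Figure D1:**
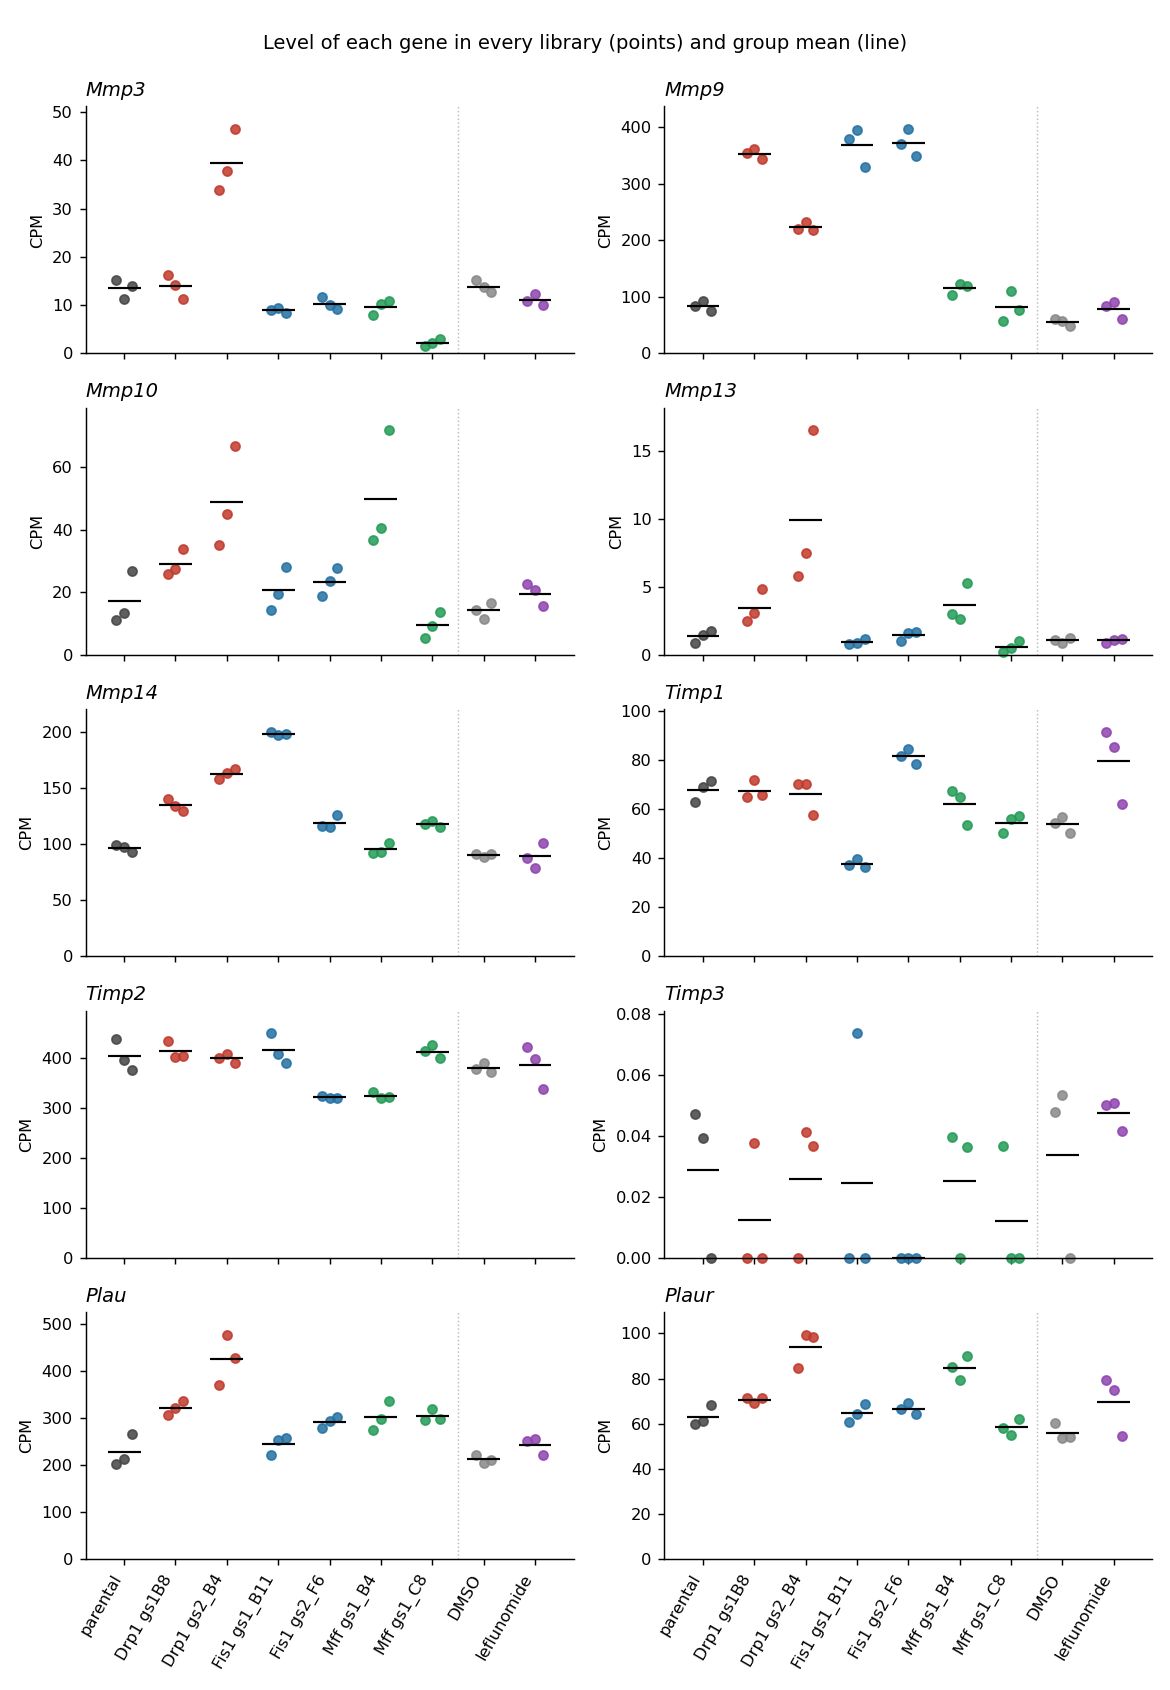
Level of the 10 genes in CPM (vertical axes, linear, from 0) in every library, with 1 point per library and a line at the mean of each group of 3; the dotted line separates the knockout arm from the drug arm. Mmp9 stood at 218 to 397 CPM in the 12 libraries of the Drp1 and Fis1 clones and at 47.8 to 124 CPM in the other 15 libraries.

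Against parental cells, the genes that passed the test (edgeR's quasi-likelihood test, Benjamini-Hochberg adjusted p below 0.05 over 13940 genes, called "higher" or "lower" below) numbered 4 of 9 in gs1B8 and 7 of 9 in gs2_B4, all higher. They numbered 4 in gs1_B11, with 2 higher and 2 lower, and 5 in gs2_F6, with 4 higher and 1 lower. In the Mff clones they numbered 7 in gs1_B4, with 5 higher and 2 lower, and 4 in gs1_C8, with 2 higher and 2 lower. Among all genes tested, 29.5% were called in gs1B8, 50.3% in gs2_B4, 47.3% in gs1_B11, 31.3% in gs2_F6, 47.7% in gs1_B4 and 46.7% in gs1_C8. The share called among the 9 was below that of all genes in gs1_B11 and gs1_C8 and above it in the other 4 clones. Because these genes were chosen with earlier results of these data known, such comparisons with all genes, here and below, are descriptions only. The median log2 fold change of the 9 genes was 0.47 in gs1B8, 0.89 in gs2_B4, 0.05 in gs1_B11, 0.25 in gs2_F6, 0.38 in gs1_B4 and -0.12 in gs1_C8, and the median over all tested genes lay between -0.02 and 0.00. All 6 comparisons share the same 3 parental libraries.

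In both Drp1 clones, Mmp9, Mmp13, Mmp14 and Plau were higher and 0 of the 9 genes were lower, where 7.94% of all tested genes were higher and 12.1% lower in both. In both Fis1 clones, Mmp9 and Mmp14 were higher and 0 were lower (5.94% and 9.02% of all genes), and Timp1 was called in opposite directions. In both Mff clones, Plau was higher and Mmp3 was lower (7.37% and 11.3% of all genes). No member was called in the same direction in all 6 clones.

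**Figure D2:**
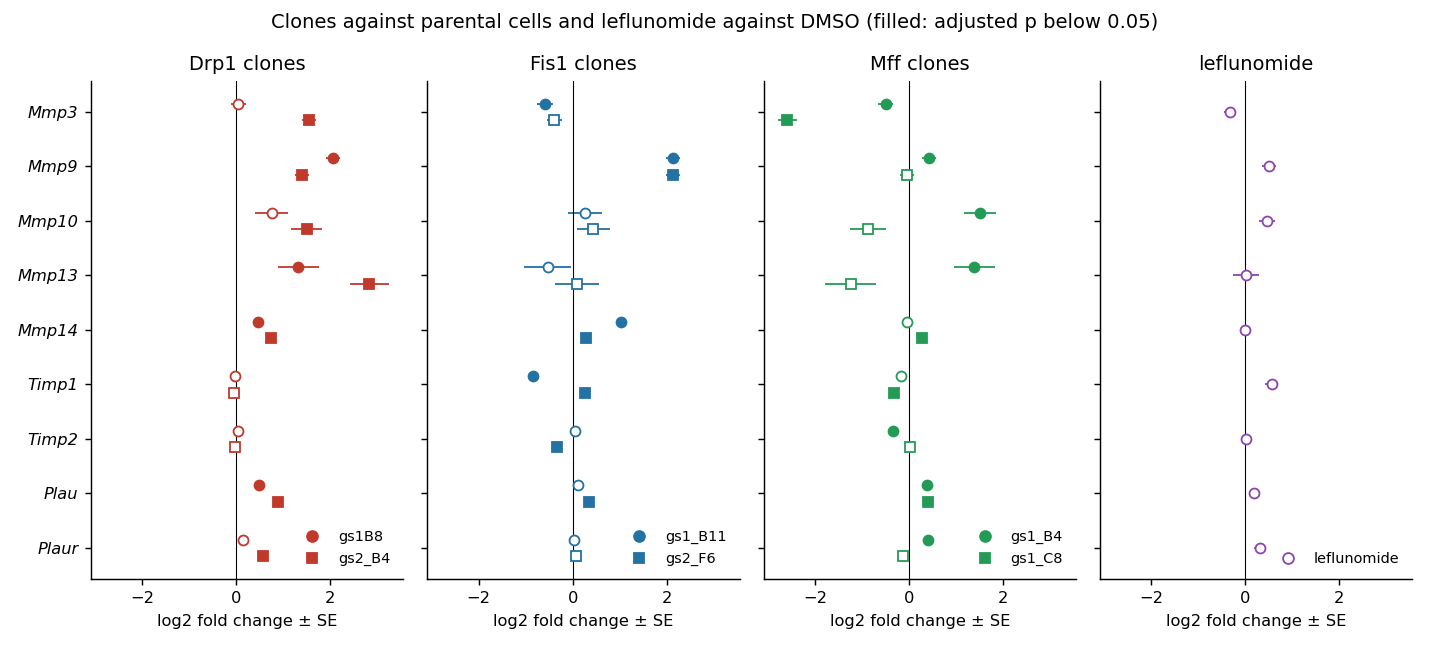
Fold change of the 9 tested genes on the log2 scale (horizontal axes) with its standard error, for each clone against parental cells and for leflunomide against DMSO; filled symbols passed the test. Mmp9 lies between 1.40 and 2.14 in the Drp1 and Fis1 clones, while Mmp10 and Mmp13 lie on opposite sides of 0 in the pair of Mff clones.

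Mmp9, the secreted gelatinase that cuts denatured collagen and type IV collagen of basement membranes, was higher in all 4 Drp1 and Fis1 clones. Its level was 83.5, 92.6 and 75.9 CPM in the parental libraries. It was 355, 362 and 345 CPM in gs1B8, 219.8, 232 and 218 CPM in gs2_B4, 379, 395 and 331 CPM in gs1_B11, and 370.0, 397 and 349 CPM in gs2_F6. All 12 of these libraries lay above every parental library, and gs2_B4 lay below the other clones of that set without overlap. The fold changes against parental cells were 4.17 in gs1B8 (log2 2.06 ± 0.149 SE, edgeR adjusted p = 3.9e-09), 2.63 in gs2_B4 (1.40 ± 0.147, adjusted p = 1.3e-07), 4.39 in gs1_B11 (2.13 ± 0.149, adjusted p = 6.9e-10) and 4.39 in gs2_F6 (2.14 ± 0.149, adjusted p = 1.1e-09).

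In the Mff clones, Mmp9 stayed near the parental level. The values were 103, 124 and 119.95 CPM in gs1_B4 and 56.9, 111 and 77.5 CPM in gs1_C8. The gs1_B4 libraries lay above the parental ones by a fold change of 1.35 (log2 0.43 ± 0.147, edgeR adjusted p = 0.020), a call that was lost without gs1_B4 replicate 2 or 3 or parental replicate 3 (0.36 to 0.40 on the log2 scale). The gs1_C8 libraries spread widely around the parental ones (log2 -0.05 ± 0.148, edgeR adjusted p = 0.81), and without gs1_C8 replicate 2, the highest of its group, the change was -0.34 and was called. In order of mean level, gs2_F6, gs1_B11 and gs1B8 overlapped one another, gs2_B4 and then gs1_B4 followed without overlap, and parental, gs1_C8, leflunomide and DMSO overlapped as neighbours. The DMSO libraries (47.8 to 61.9 CPM) nevertheless lay below every parental library (75.9 to 92.6 CPM), though both groups are unedited cells, from different arms.

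Taking the 2 clones of a genotype as its replicates, 0 of the 9 genes were called between any pair of knockouts, where the share over 15513 genes was 0% for Drp1 against Fis1, 0.00645% for Drp1 against Mff and 0.00645% for Fis1 against Mff. At an unadjusted p below 0.05, edgeR gave 2 genes for Drp1 against Fis1 (Mmp13 and Plau), 2 for Drp1 against Mff (Mmp3 and Mmp9) and 1 for Fis1 against Mff (Mmp9). The share of all genes at that threshold is not given here. Mmp9 was 2.92-fold higher in Drp1 than in Mff clones (log2 1.54 ± 0.269, edgeR adjusted p = 0.44) and 3.76-fold higher in Fis1 than in Mff clones (1.91 ± 0.272, adjusted p = 0.32). DESeq2 called Mmp9 in both of these comparisons and none of the 9 genes for Drp1 against Fis1, and limma voom called 0 in all 3. Among all 15513 genes, DESeq2 called 225 for Drp1 against Mff, 399 for Fis1 against Mff and 9 for Drp1 against Fis1.

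Mmp3 and Mmp10, the stromelysins, cut proteoglycans, laminin and fibronectin and activate other metalloproteinase precursors. Their transcripts share 140 stretches of 50 bases, 7.99% of those in Mmp3 and 8.37% of those in Mmp10, and the deposited counts of both held fractions in 25 of 27 libraries, while their sum was whole in all 27 (within 0.005). Reads had thus been divided between the pair, and the split of each library is uncertain. The other 8 genes had whole counts in every library.

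Mmp3 stood at 15.2, 11.2 and 13.9 CPM in parental cells. It was 16.3, 14.2 and 11.4 CPM in gs1B8, 33.9, 37.9 and 46.5 CPM in gs2_B4, 8.91, 9.43 and 8.41 CPM in gs1_B11, and 11.8, 10.005 and 9.16 CPM in gs2_F6. It was 7.95, 10.2 and 10.9 CPM in gs1_B4 and 1.65, 2.22 and 2.95 CPM in gs1_C8. The gs2_B4 libraries were above and the gs1_C8 libraries below all others, with no overlap at either end. Mmp3 was 2.90-fold the parental level in gs2_B4 (log2 1.54 ± 0.15, edgeR adjusted p = 4.3e-08) and 0.166-fold in gs1_C8 (-2.59 ± 0.199, adjusted p = 2.3e-09). It was also lower in gs1_B11 (-0.59 ± 0.165, adjusted p = 0.0062) and in gs1_B4 (-0.50 ± 0.162, adjusted p = 0.016), the latter not without parental replicate 1 or gs1_B4 replicate 1. In gs1B8 (0.05) and gs2_F6 (-0.39, edgeR adjusted p = 0.071) it was not called.

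Mmp10 was 11.2, 13.5 and 26.9 CPM in the parental libraries. It was 25.9, 27.4 and 33.9 CPM in gs1B8, 35.0, 44.9 and 66.7 CPM in gs2_B4, 14.3, 19.5 and 28.01 CPM in gs1_B11, and 18.8, 23.6 and 27.7 CPM in gs2_F6. In the Mff clones it was 36.6, 40.6 and 71.7 CPM in gs1_B4 against 5.53, 9.29 and 13.7 CPM in gs1_C8. Taken over whole groups, only the gs2_B4 and gs1_B4 libraries were all above the parental ones, and no clone was wholly below. Compared at the same replicate number, every clone but gs1_C8 lay above the parental library each time, and gs1_C8 lay below it each time. Mmp10 was 2.82-fold higher in gs2_B4 (log2 1.5 ± 0.336, edgeR adjusted p = 0.00090) and 2.84-fold higher in gs1_B4 (1.51 ± 0.335, adjusted p = 0.00091). In gs1B8 its change was 0.75 ± 0.344 (adjusted p = 0.11) and in gs1_C8 -0.88 ± 0.383 (adjusted p = 0.066), and these became calls without parental replicate 3 in gs1B8 (1.22) and without parental replicate 1 (-1.09) or gs1_C8 replicate 3 (-1.20) in gs1_C8.

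Counted as 1 feature, which avoids the split, Mmp3 plus Mmp10 was higher in gs2_B4 (log2 1.51 ± 0.250, edgeR adjusted p = 3.9e-05) and gs1_B4 (0.93 ± 0.251, adjusted p = 0.0045) and lower in gs1_C8 (-1.41 ± 0.285, adjusted p = 0.00041). The sum was not called in gs1B8 (0.48), gs1_B11 (-0.05) or gs2_F6 (0.13). Mmp3 made up 34.2% to 57.6% of the pair's counts in parental cells and 13.2% to 20.1% in gs1_B4, where the 2 genes were called in opposite directions.

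Mmp13, the collagenase that cuts fibrillar collagens, had the lowest level of the 9 tested genes and the largest fold change. It was 0.852, 1.499 and 1.77 CPM in parental cells. It was 2.48, 3.10 and 4.85 CPM in gs1B8, 5.81, 7.52 and 16.6 CPM in gs2_B4, and 3.01, 2.69 and 5.34 CPM in gs1_B4. All libraries of these 3 clones exceeded every parental library. Mmp13 was 7.12-fold higher in gs2_B4 (log2 2.83 ± 0.420, edgeR adjusted p = 1.1e-05), 2.49-fold higher in gs1B8 (1.32 ± 0.437, adjusted p = 0.028) and 2.61-fold higher in gs1_B4 (1.39 ± 0.434, adjusted p = 0.012).

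The call of Mmp13 in gs1B8 was lost without parental replicate 1 (1.09), parental replicate 2 (1.40) or gs1B8 replicate 3 (1.00), and that in gs1_B4 without parental replicate 1 (1.17) or gs1_B4 replicate 3 (1.01). It was 0.833, 0.848 and 1.19 CPM in gs1_B11, 1.04, 1.65 and 1.72 CPM in gs2_F6, and 0.220, 0.538 and 1.06 CPM in gs1_C8, each overlapping the parental range. In gs1_C8 the change was -1.24 ± 0.541 (edgeR adjusted p = 0.067), and it was called without parental replicate 1 (-1.46) or gs1_C8 replicate 3 (-1.84). The parental group held 95 Mmp13 counts over its 3 libraries, so its fold changes rest on few reads. Both calls were also lost with limma voom (1.29 in gs1B8, adjusted p = 0.057, and 1.09 in gs1_B4, adjusted p = 0.077).

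Within every one of the 7 groups of the knockout arm, Mmp10 and Mmp13 were highest in the library from the last serial run of columns, and Mmp10 was lowest in the library from the first. A serial run holds 1 library of each group with consecutive column numbers, and no label ties it to a day or a preparation. Plau was lowest in the first run in all 7 groups and Mmp9 highest in the second run in all 7. The part of the serial run in the differences between clones was not tested beyond the fit with the run as a term given in the closing section. Unlike the main fit, that fit called Mmp10 in gs1B8 (log2 0.81, edgeR adjusted p = 0.00011), gs2_F6 (0.49, adjusted p = 0.0081) and gs1_C8 (-0.85, adjusted p = 0.00012). It also called Mmp13 in gs1_C8 (-1.26, adjusted p = 0.0012).

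Mmp14, the membrane-anchored enzyme that cuts collagen at the cell surface and activates pro-MMP2, was higher in 5 of the 6 clones. It was 99.5, 97.3 and 93.4 CPM in parental cells. It was 140.2, 134 and 129.8 CPM in gs1B8, 158, 163 and 166 CPM in gs2_B4, 199.9, 197 and 198 CPM in gs1_B11, and 116, 115 and 126 CPM in gs2_F6. In the Mff clones it was 92.3, 93.1 and 101 CPM in gs1_B4 and 118, 121 and 115 CPM in gs1_C8. Only gs1_B4 overlapped the parental range, and gs1_B11, gs2_B4 and gs1B8 each lay above the next group in the order without overlap.

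Mmp14 was 2.05-fold higher in gs1_B11 (log2 1.04 ± 0.0466, edgeR adjusted p = 1.3e-12), 1.66-fold in gs2_B4 (0.73 ± 0.0465, adjusted p = 1.1e-10) and 1.38-fold in gs1B8 (0.47 ± 0.0466, adjusted p = 3.1e-07). It was 1.22-fold higher in gs2_F6 (0.29 ± 0.0467, adjusted p = 7.7e-05) and 1.21-fold in gs1_C8 (0.28 ± 0.0467, adjusted p = 6.4e-05), and not called in gs1_B4 (-0.05 ± 0.0469, adjusted p = 0.44).

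Among the inhibitors, Timp1, a secreted inhibitor that binds the precursor of MMP9 as well as active enzymes, moved in 3 of the 6 clones. It was 63.1, 69.1 and 71.8 CPM in parental cells. It was 65.2, 71.8 and 65.8 CPM in gs1B8, 70.4, 70.3 and 57.8 CPM in gs2_B4, 37.5, 39.7 and 36.4 CPM in gs1_B11, and 81.7, 84.9 and 78.6 CPM in gs2_F6. It was 67.4, 65.2 and 53.8 CPM in gs1_B4 and 50.4, 56.2 and 57.3 CPM in gs1_C8. The 3 gs1_B11 libraries were below all others and the gs2_F6 libraries above all parental ones, so the 2 Fis1 clones lay on opposite sides. Timp1 fell to 0.558-fold in gs1_B11 (log2 -0.84 ± 0.0866, edgeR adjusted p = 1.5e-07) and to 0.796-fold in gs1_C8 (-0.33 ± 0.0844, adjusted p = 0.0032).

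In gs2_F6, Timp1 was 1.19-fold higher (log2 0.25 ± 0.0831, edgeR adjusted p = 0.024), which was not called without parental replicate 1 or gs2_F6 replicate 1 or 2, or with all 27 libraries in 1 fit (0.27, adjusted p = 0.066). Without parental replicate 1, the gs2_F6 clone had 3 called genes of the 9 in place of 5, because Plau (0.28) was lost as well. In gs1B8, gs2_B4 and gs1_B4, Timp1 differed from parental cells by -0.02, -0.05 and -0.16 on the log2 scale, with overlapping libraries.

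Timp2, which inhibits metalloproteinases and forms the complex with MMP14 on which pro-MMP2 activation depends, was lower in 1 Fis1 and 1 Mff clone. It was 439, 397 and 378 CPM in parental cells. It was 326, 321 and 319.8 CPM in gs2_F6 and 332, 319.9 and 323 CPM in gs1_B4, below every parental library. The fold changes were 0.790 in gs2_F6 (log2 -0.34 ± 0.0535, edgeR adjusted p = 5.4e-05) and 0.787 in gs1_B4 (-0.34 ± 0.0535, adjusted p = 2.2e-05). In the other 4 clones Timp2 ran from 391 to 450.5 CPM and overlapped the parental range (edgeR adjusted p between 0.50 and 0.77).

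The ratio of Mmp14 to Timp2, in CPM per kb, was between 0.148 and 0.162 in the parental libraries and above that in all 18 clone libraries, from 0.182 in gs1_B4 to 0.330 in gs1_B11. In the drug arm it was 0.148 to 0.159 with DMSO and 0.136, 0.129 and 0.196 with leflunomide. Leflunomide replicate 3, of unedited cells, thus lay inside the gs1_B4 range (0.182 to 0.205). The ratio of Mmp9 to Timp1 was 0.311 ± 0.0399 (SD, n = 3) in parental cells, 1.31 ± 0.0510 in gs1B8, 0.853 ± 0.0843 in gs2_B4, 2.44 ± 0.137 in gs1_B11 and 1.14 ± 0.0300 in gs2_F6. It was 0.473 ± 0.0879 in gs1_B4 and 0.372 ± 0.109 in gs1_C8, the latter overlapping the parental range. The gs1_B11 libraries, with high Mmp9 and low Timp1 levels, lay above those of every other group. These ratios were formed with the levels known and carry no test.

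**Figure D3:**
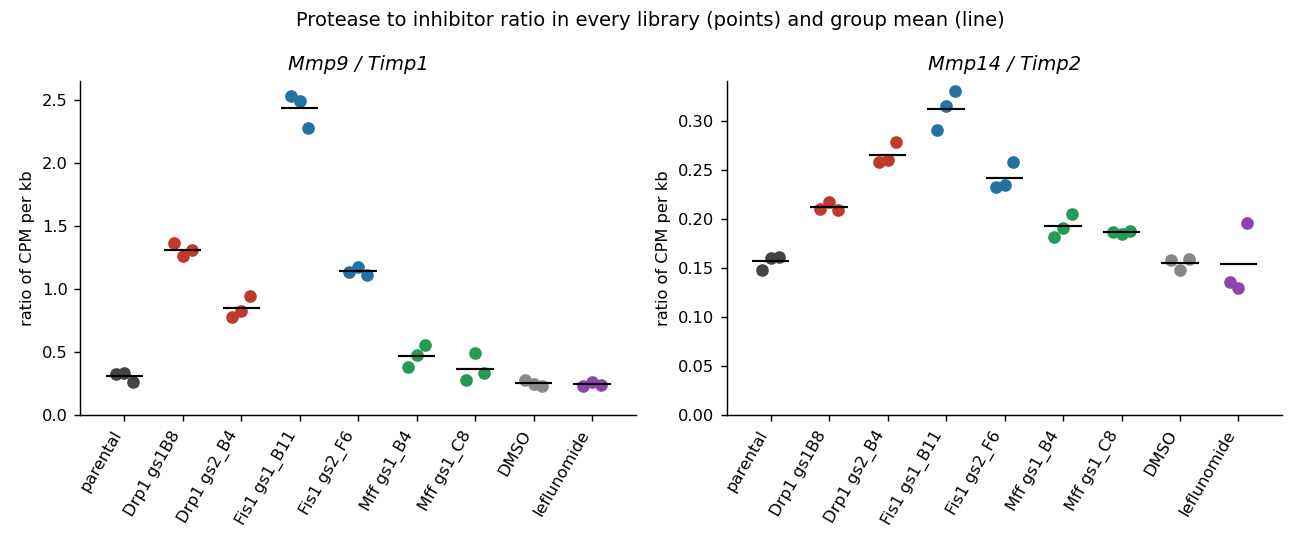
Ratio of Mmp9 to Timp1 and of Mmp14 to Timp2, each in CPM per kb of exon (vertical axes, linear, from 0), with 1 point per library and a line at the group mean. The 3 libraries of gs1_B11 lie at 2.28 to 2.54 for Mmp9 to Timp1, above all other libraries.

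Plau, the serine protease that activates plasminogen, was higher in 5 of the 6 clones. It was 203, 214 and 266 CPM in parental cells. It was 306, 321 and 337 CPM in gs1B8, 369.9, 476 and 428 CPM in gs2_B4, 222, 254 and 258 CPM in gs1_B11, and 278, 294 and 301 CPM in gs2_F6. It was 274, 297 and 336 CPM in gs1_B4 and 297, 319 and 297 CPM in gs1_C8. Except for gs1_B11, all clone libraries exceeded the highest parental library, and gs2_B4 exceeded all others. The fold changes were 1.85 in gs2_B4 (log2 0.89 ± 0.0974, edgeR adjusted p = 2.3e-07), 1.40 in gs1B8 (0.49 ± 0.0972, adjusted p = 0.00068), 1.33 in gs1_C8 (0.41 ± 0.0972, adjusted p = 0.0017), 1.30 in gs1_B4 (0.38 ± 0.0971, adjusted p = 0.0028) and 1.27 in gs2_F6 (0.35 ± 0.0972, adjusted p = 0.0096). In gs1_B11 the change was 0.11 ± 0.0974 (adjusted p = 0.39).

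Plaur, the receptor that holds urokinase at the cell surface through a lipid anchor, was higher in only 2 clones. It was 59.9, 61.0 and 68.3 CPM in parental cells, 84.5, 99.3 and 98.2 CPM in gs2_B4 and 84.9, 79.2 and 89.8 CPM in gs1_B4. These 2 clones, of different genotypes, lay above all other libraries of the arm. The fold changes were 1.48 in gs2_B4 (log2 0.56 ± 0.0662, edgeR adjusted p = 6.1e-07) and 1.31 in gs1_B4 (0.39 ± 0.0663, adjusted p = 5.5e-05). In gs1B8 the values of 71.3, 69.2 and 71.3 CPM lay just above the parental range without passing the test (0.15 ± 0.0667, adjusted p = 0.099). The other 3 clones ran from 55.2 to 69.3 CPM.

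The 6 macrophage markers together were above the parental level of 14.8 to 16.8 CPM without overlap in all 6 clones. Their sum was 24.7 to 28.4 CPM in gs2_B4, 24.1 to 25.7 CPM in gs2_F6, 19.6 to 21.9 CPM in gs1B8, 19.2 to 20.7 CPM in gs1_B11, 18.1 to 19.4 CPM in gs1_C8 and 17.8 to 18.9 CPM in gs1_B4, with 2 or 3 of the 6 markers averaging at least 1 CPM in each. The 6 fibroblast markers, of which 1 passed that level in each group, summed to 6.42 to 8.07 CPM in gs1_C8 and 4.91 to 6.69 CPM in gs1_B4 against 4.21 to 4.26 CPM in parental cells, and to 2.17 to 3.11 CPM in gs2_F6. The 8 mammary carcinoma markers summed to 2980 to 3013 CPM in parental cells, 2482 to 2661 CPM in gs1B8 and 3367 to 3721 CPM in gs1_B11. The part of these transcripts in the results was not tested.

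Tested directly, the clones of a genotype differed from each other in 6 of 9 genes for Drp1, 4 of 9 for Fis1 and 7 of 9 for Mff, where 41.0%, 47.6% and 54.7% of all tested genes differed. Between the Drp1 clones, Mmp3, Mmp13, Mmp14, Plau and Plaur were higher in gs2_B4 and Mmp9 was higher in gs1B8. Between the Fis1 clones, Timp1 and Plau were higher in gs2_F6, and Mmp14 and Timp2 were higher in gs1_B11. Between the Mff clones, Mmp3, Mmp9, Mmp10, Mmp13 and Plaur were higher in gs1_B4, and Mmp14 and Timp2 were higher in gs1_C8. The largest of these differences were those of the chromosome 9 genes, with log2 differences of gs1_C8 minus gs1_B4 of -2.09 (Mmp3), -2.39 (Mmp10) and -2.63 (Mmp13). The call of Plau between the Fis1 clones was lost on leaving out any 1 of their 6 libraries (0.17 to 0.28), that of Mmp13 between the Drp1 clones without gs2_B4 replicate 3 (0.94), and that of Mmp9 between the Mff clones when only these groups entered the fit (-0.49).

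Over the 21 libraries of the knockout arm, the 3 closest of the 36 pairs were those among Mmp10, Mmp13 and Plaur. Pearson's r of log2 CPM was 0.91 for Mmp13 with Plaur (Spearman 0.91), 0.89 for Mmp10 with Plaur (0.93), 0.89 for Mmp10 with Mmp13 (0.89) and 0.79 for Mmp3 with Mmp13 (0.66). The value for Mmp3 with Mmp10 was 0.70 (0.43), for a pair that shares reads. Mmp9 followed a different pattern, with r = 0.66 with Mmp14 (Spearman 0.57), 0.14 with Plaur (0.19) and 0.22 with Mmp13 (0.06). The lowest values were -0.46 for Timp1 with Timp2 (-0.44) and -0.59 for Timp1 with Mmp14 (-0.34). These values describe libraries that share clones, depth and serial runs, and they carry no p-value.

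**Figure D4:**
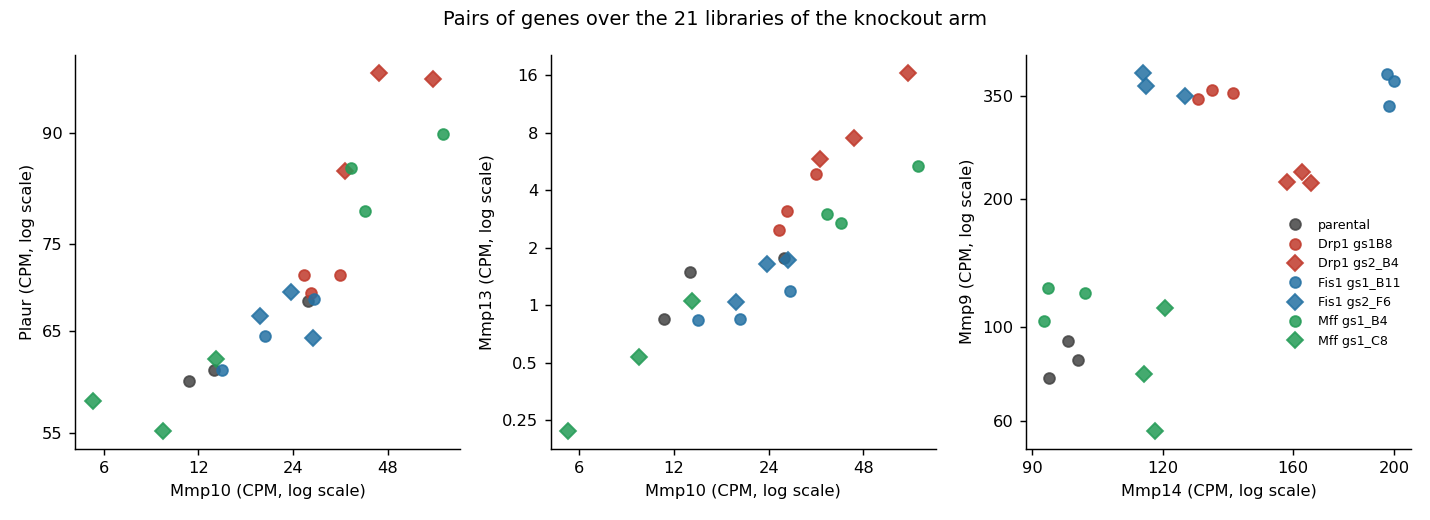
Levels of Plaur and Mmp13 against Mmp10 and of Mmp9 against Mmp14 in CPM (all axes logarithmic) in the 21 libraries of the knockout arm, with 1 point per library, circles and diamonds for the clones of a genotype. In the left and middle panels gs1_C8 lies at the low end and gs2_B4 and gs1_B4 at the high end, while in the right panel the Drp1 and Fis1 clones lie above 200 CPM of Mmp9 at any level of Mmp14.

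The 3 other genes whose log2 levels followed each member most closely were taken among 9747 genes with a mean of at least 5 CPM. For Mmp3 they were Igfbp4, which binds insulin-like growth factors (r = 0.96), the hyaluronan synthase gene Has2 (0.94) and Acly (0.94), and for Mmp9 they were Emp3 (0.94), Mybbp1a (0.90) and Qk (0.90). For Mmp10 they were Cdkn1a, which encodes the cell cycle inhibitor p21 (0.94), Rsbn1 (0.94) and the laminin chain gene Lamb3 (0.94), and for Mmp13 Igsf3 (0.93), Ripk2 (0.92) and again Rsbn1 (0.92). For Mmp14 they were Chd8, Samd4 and Mapk1ip1l (0.95 each), for Plau Rnf19b (0.95), Glrp1 (0.93) and Tnfaip2 (0.90), and for Plaur the proteasome gene Psmd8 (0.92), B4galt7 (0.92) and Prkg2 (0.91). Timp1 was followed by Ints13, Nabp2 and Psmb2 (0.90 to 0.91) and Timp2 by the talin gene Tln2 (0.88), Rai1 (0.86) and Pigb (0.85). All of these are descriptions over 21 libraries from 7 groups.

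Leflunomide, an inhibitor of the pyrimidine synthesis enzyme DHODH, changed 0 of the 9 genes past the test, where 2.79% of 12603 genes were called. At an unadjusted p below 0.05 edgeR gave 6 (Mmp3, Mmp9, Mmp10, Timp1, Plau and Plaur). The share of all genes at that threshold is not given here, so this count has no background beside it. DESeq2 called 2 after adjustment (Mmp9 and Timp1), where it called 767 of the 12603 genes. With quality weights, limma voom called 5 (Mmp9, Mmp10, Timp1, Plau and Plaur), where it called 2816 of the 12603 genes. Treated and control libraries did not overlap for 2 of the 9 genes, Timp1 and Mmp3, and for 26.2% of all 12603 genes.

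Timp1 was 54.6, 57.1 and 50.6 CPM with DMSO and 91.7, 85.3 and 62.2 CPM with leflunomide, so that all treated libraries were above all controls. Its fold change was 1.47 (log2 0.56 ± 0.133, edgeR adjusted p = 0.068). Mmp9 was 61.9, 57.0 and 47.8 CPM with DMSO and 84.0, 91.0 and 60.6 CPM with leflunomide (0.50 ± 0.152, adjusted p = 0.12), and leflunomide replicate 3 fell inside the control range. Plaur was 60.3, 53.8 and 54.3 CPM with DMSO and 79.2, 75.1 and 54.5 CPM with leflunomide (0.31 ± 0.130, adjusted p = 0.23), again with replicate 3 inside the control range.

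Without leflunomide replicate 3, edgeR called 5 of the 9 genes as higher, with log2 fold changes of 0.70 for Timp1, 0.65 for Mmp9, 0.60 for Mmp10, 0.45 for Plaur and 0.25 for Plau, and 1583 of all genes in place of 351. Leaving out any of the other 5 libraries gave 0 of the 9. Without DMSO replicate 3, the library rich in ribosomal RNA, Timp1 changed by 0.51 and Mmp9 by 0.40. DMSO replicate 3 was the lowest of the controls for Mmp3, Mmp9 and Timp1.

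Mmp3 was 15.2, 13.8 and 12.7 CPM with DMSO and 10.9, 12.2 and 10.01 CPM with leflunomide, all treated libraries being below the controls (log2 -0.33 ± 0.117, edgeR adjusted p = 0.17). Mmp10 was 14.4, 11.6 and 16.7 CPM with DMSO and 22.6, 20.7 and 15.5 CPM with leflunomide (0.46 ± 0.175, adjusted p = 0.19), and the sum of the pair changed by 0.13 ± 0.120 (adjusted p = 0.60). Plau was 222, 205 and 210.0 CPM with DMSO and 251, 255 and 221 CPM with leflunomide (0.19 ± 0.0750, adjusted p = 0.20). Mmp13 (0.01), Mmp14 (-0.02) and Timp2 (0.02) had overlapping libraries and edgeR adjusted p between 0.92 and 0.99. Beside these values, the summed macrophage markers were 21.6 to 24.7 CPM with leflunomide against 10.05 to 13.9 CPM with DMSO, and the summed mammary carcinoma markers 1876 to 2135 CPM against 2475 to 2589 CPM. Their part in the results was not tested.

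Other genes of the same pathways, from lists chosen with earlier results of these data known, were set beside the 10. Their counts are to be read against the shares of all genes called, given above (29.5% in gs1B8, 50.3% in gs2_B4, 47.3% in gs1_B11, 31.3% in gs2_F6, 47.7% in gs1_B4, 46.7% in gs1_C8 and 2.79% with leflunomide). Of 18 other metalloproteinase genes only 4 passed the filter on low counts. Mmp2, whose precursor is named above with Mmp14 and Timp2, averaged at most 0.052 CPM in any group. Mmp24, a membrane-anchored enzyme at 4.37 ± 0.614 CPM (SD, n = 3) in parental cells, was higher in gs2_B4 (24.7 ± 2.04 CPM, log2 2.48) and gs2_F6 (11.7 ± 0.837 CPM, 1.41) and lower in gs1_B4 (-0.89) and gs1_C8 (-0.43). Mmp11 was lower in gs1B8 (-0.61). The list held 1 to 3 called genes in each clone and 0 with leflunomide.

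Of 9 further inhibitors and activators 6 were tested. Cav1, the coat protein of caveolae, was 43.1 ± 3.17 CPM in parental cells, higher in gs1B8 (80.4 ± 6.28 CPM, log2 0.89), gs1_B11 (102 ± 8.13 CPM, 1.24) and gs2_F6 (135 ± 5.63 CPM, 1.64), and lower in gs1_B4 (7.86 ± 1.64 CPM, -2.49) and gs1_C8 (3.33 ± 0.725 CPM, -3.69). Pcsk6, a proprotein convertase, was lower in 5 clones (-0.78 to -1.71) and higher in gs1_C8 (0.43). Bsg, a membrane protein known to induce metalloproteinases, was higher in both Drp1 clones (0.15 and 0.23) and lower in both Mff clones (-0.12 and -0.33). With leflunomide 0 of the 6 were called.

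Of 19 plasminogen genes 13 were tested, with 3 to 6 higher and 4 or 5 lower in each clone and 3 higher with leflunomide. Plg, the gene of plasminogen itself, averaged 0 CPM in every group. Lrp1, the endocytic receptor that clears urokinase bound to its inhibitor, had the widest range. It was 23.9 ± 2.90 CPM in parental cells, 92.9 ± 3.24 CPM in gs1B8 (log2 1.95), 207 ± 27.9 CPM in gs2_B4 (3.09) and 3.52 ± 0.511 CPM in gs1_C8 (-2.77). It was also higher in gs1_B11 (0.35) and lower in gs2_F6 (-0.83) and gs1_B4 (-0.64). Itgb5 was higher in the Drp1 and Fis1 clones (0.35 to 0.53) and lower in gs1_B4 (-0.27). Serpinb2, an inhibitor of urokinase, was lower in gs1B8 (-0.92) and higher in gs1_B4 (0.59), gs1_C8 (0.82) and with leflunomide (106 ± 2.51 CPM against 69.3 ± 3.72 CPM, 0.61).

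Of 16 ADAM and ADAMTS proteases 12 were tested in the knockout arm, and the counts ran from 8 higher and 2 lower in gs1_B11 to 0 higher and 5 lower in gs1_C8. Adam19 was 24.7 ± 1.49 CPM in parental cells, higher in gs2_B4 (75.6 ± 0.778 CPM, log2 1.60), gs1_B4 (0.90), gs1_B11 (0.73) and gs1B8 (0.57), and lower in gs2_F6 (-0.34) and gs1_C8 (1.61 ± 0.333 CPM, -3.95). Adam8 was lower in gs2_B4 (-2.35), gs1_B11 (-0.99), gs1_B4 (-2.65) and with leflunomide (-0.73), and higher in gs2_F6 (0.86). Of 14 tested cathepsins and cystatins, 3 to 7 were higher and 2 to 6 lower in each clone. Ctse, an aspartic protease, was higher in gs2_F6 (54.8 ± 2.94 CPM against 6.10 ± 1.14 CPM, 3.15) and gs1_C8 (121 ± 6.32 CPM, 4.30) and lower in gs2_B4 (-0.84) and gs1_B4 (-1.06). Of 6 tested membrane serine proteases and their inhibitors, 4 were higher in gs1_C8 and 0 to 2 in the other clones, with St14, known as matriptase, higher in gs1_B11 (0.52) and gs1_C8 (0.37) and lower in gs2_B4 (-0.40) and gs2_F6 (-0.18).

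A list of 17 transcription factor genes, 15 of AP-1 and ETS factors and the RUNX genes Runx1 and Runx2, was tested whole in the knockout arm. The count was 11 higher and 2 lower in gs2_B4, 9 and 1 in gs1_B4, 8 and 3 in gs1_B11, 6 and 1 in gs1B8, 2 and 4 in gs2_F6, and 5 and 8 in gs1_C8. In all, 76.5% of the list was called in gs2_B4 and in gs1_C8, 64.7% in gs1_B11, 58.8% in gs1_B4, 41.2% in gs1B8 and 35.3% in gs2_F6. Without the RUNX genes the counts were 9 higher and 2 lower in gs2_B4, 8 and 1 in gs1_B4, 7 and 3 in gs1_B11, 5 and 1 in gs1B8, 2 and 3 in gs2_F6, and 5 and 6 in gs1_C8. The median log2 fold change of the 17 was 0.44 in gs2_B4, 0.26 in gs1_B4 and 0.25 in gs1_B11, and between -0.07 and 0.08 in the other 3 clones. Jun, a subunit of AP-1, was 34.8 ± 3.83 CPM in parental cells, higher in gs1B8 (54.8 ± 8.05 CPM, 0.64), gs2_B4 (62.5 ± 6.23 CPM, 0.83), gs1_B11 (65.02 ± 9.93 CPM, 0.90) and gs1_B4 (58.0 ± 6.66 CPM, 0.70), and not called in gs2_F6 (0.16) or gs1_C8 (-0.07). Jun was also higher with leflunomide (56.5 ± 5.55 CPM against 30.8 ± 1.63 CPM, 0.88), as was Atf3 (0.53), which was also higher in gs2_B4 (0.47), gs1_B11 (0.80), gs1_B4 (0.94) and gs1_C8 (1.31). Elf3 was higher in gs2_B4 (0.615), gs2_F6 (0.78), gs1_B4 (0.89) and gs1_C8 (0.69). Etv1 was lower in gs2_B4 (-0.55), gs1_B11 (-0.37), gs2_F6 (-0.51) and gs1_C8 (-0.73). Of the clones with higher Jun, gs2_B4 and gs1_B4 had Mmp10, Mmp13 and Plaur all called higher, and gs1B8 had only Mmp13 of these. In gs1_B11, Mmp10 (0.26), Mmp13 (-0.53) and Plaur (0.04) were not called. Any part of these factors in the levels of the 10 genes was not tested.

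Among 24 genes of basement membrane and matrix substrates 19 were tested, and the clones had 2 to 9 higher and 4 to 8 lower. Tnc, the matrix glycoprotein tenascin C, was 10.01 ± 1.03 CPM in parental cells, higher in gs1_B11 (44.8 ± 1.24 CPM, log2 2.16), gs1_B4 (44.8 ± 2.78 CPM, 2.13) and gs2_B4 (0.49), and lower in gs2_F6 (1.11 ± 0.0678 CPM, -3.17) and gs1_C8 (-1.46). Spp1, which encodes osteopontin, was higher in gs2_B4 (404 ± 7.27 CPM against 77.8 ± 10.7 CPM, 2.36) and gs1_B4 (1.1) and lower in gs1B8 (-0.42), gs1_B11 (-0.88) and gs1_C8 (-1.23). Sparc was lower in gs2_F6 (-1.35), gs1_B4 (-1.33) and gs1_C8 (-3.24). With leflunomide 4 of the 19 were higher, among them Tnc (1.69), Sparc (0.60) and the basement membrane collagen Col4a5 (0.85). Col4a5 was lower in gs1B8, gs2_B4, gs1_B11 and gs1_B4 (-0.99 to -1.70) and higher in gs2_F6 (0.58) and gs1_C8 (0.45).

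**Figure D5:**
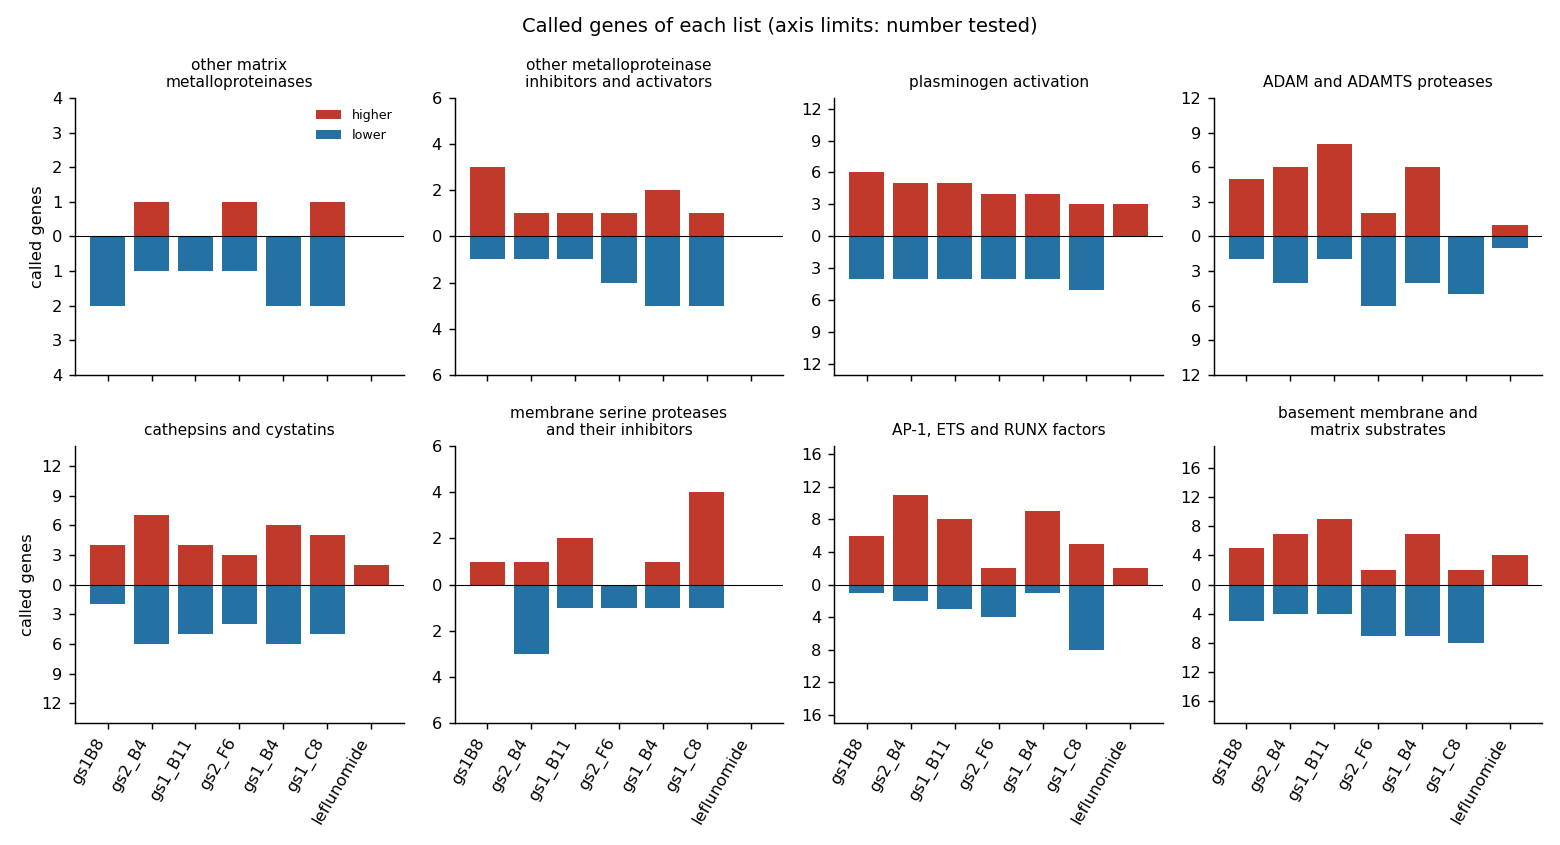
Number of called genes in each of 8 lists (vertical axes, higher above and lower below 0, each axis running to the number tested) for the 6 clones against parental cells and for leflunomide against DMSO. The list of AP-1, ETS and RUNX factors reaches 11 higher genes in gs2_B4 and 8 lower genes in gs1_C8.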

How the data were processed

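Poly-A RNA of 27 libraries in 9 groups of 3 was analysed. The deposited values are expected counts per gene that the authors obtained with RSEM on GRCm38/mm10 after trimming with Trimmomatic 0.35, per the submitters' processing notes. The sources used here name neither the aligner nor the RSEM version. The expected counts were rounded to whole numbers. Genes were kept by filterByExpr and scaled by TMM in edgeR 4.0.16 (R 4.3.3), once for the 21 libraries of the knockout arm and once for the 6 of the drug arm. Two-sided quasi-likelihood tests were adjusted by Benjamini-Hochberg over all genes of each fit with a threshold of 0.05, and the fits were tested on simulated data. Knockouts were compared on counts summed per clone. Standard errors are the fold change divided by the root of F. Per-kilobase levels use exon lengths of GENCODE M21. Named are all 10 genes and the 3 genes most like each tested one in log2(CPM + 0.5). For each list, up to 4 genes were picked by the largest summed absolute change over the clones at a mean of at least 5 CPM. Fold changes are given for only some of these picked genes. Members and lists were chosen with earlier results of these data known. Alternatives were DESeq2 1.42.0, its size factors, no filter, limma 3.58.1 voom, ribosomal genes left out, other sets of libraries, the serial run as a block and leaving out each library. Summing Mmp3 with Mmp10 was added after seeing the data.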

Additional observations from a re-analysis of the deposited data

Results flagged for a closer look

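For each of the values below, the effect of knockout against the same parental libraries differed between the clones of a genotype by edgeR's test of clone against clone (Benjamini-Hochberg adjusted p). Values are log2 differences.

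In gs2_B4 minus gs1B8, the Drp1 clones, Mmp3 differed by 1.49, Mmp13 by 1.51, Plaur by 0.41, Plau by 0.40, Mmp14 by 0.27 and Mmp9 by -0.67, with edgeR adjusted p from 1.2e-07 to 0.0029. In gs2_F6 minus gs1_B11, the Fis1 clones, Timp1 differed by 1.09 (adjusted p = 2.7e-09), Mmp14 by -0.75, Timp2 by -0.39 and Plau by 0.24, the last at an adjusted p of 0.049. In gs1_C8 minus gs1_B4, the Mff clones, Mmp13 differed by -2.63, Mmp10 by -2.39, Mmp3 by -2.09, Plaur by -0.52, Mmp9 by -0.48, Timp2 by 0.37 and Mmp14 by 0.32, with edgeR adjusted p from 3.1e-08 to 0.0085.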

How the results depend on the processing

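The 6 counts of genes called in a clone against parental cells stayed within 1.5 times of their value under every alternative that kept all libraries. On leaving out 1 library the count in gs2_F6 ran from 3 to 6. With leflunomide 0 of the 9 genes were called, against 2 with DESeq2, 2 without a filter on low counts, 5 with limma voom, 2 with the serial run as replicate block, 3 with all 27 libraries in 1 fit, and 0 to 5 on leaving out 1 library. Between Drp1 and Mff clones DESeq2 gave 1 and no filter 1, and between Fis1 and Mff clones also 1 and 1, each time Mmp9. The cause was not tested.

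Deviations from the group means correlated at -0.097 to 0.292 for 63 pairs of same-run libraries in the knockout arm (median 0.081, 23 over 0.1) and at -0.252 to 0.124 for 126 pairs from different runs (median -0.04, 3 over 0.1). No label ties a run together and not every same-run pair passed 0.1, so the main fit left the run out. The same-run values are the higher ones, and the 0.1 mark is no test of a run effect. The p-values of the main fit thus take no account of the run. With the replicate block, the calls numbered 6 in gs1B8, 6 in gs2_F6 and 6 in gs1_C8, with Mmp10 in all 3 (0.81, 0.49 and -0.85), Plaur in gs1B8 (0.15) and Mmp13 in gs1_C8 (-1.26) gained, and 7 between the Drp1 clones. The share of all genes called in the fit with the block is not given here, so these gains have no background beside them.

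Changes of sign were found among values that passed no test. Timp2 in gs2_B4 was 0.00 (0.0025) without ribosomal RNA genes, and Mmp13 with leflunomide was -0.02 (-0.0152) with voom. On leaving out 1 library, the lowest and highest values in gs1B8 were -0.0791 and 0.1706 for Mmp3, -0.0666 and 0.019 for Timp1 and -0.0226 and 0.0997 for Timp2. In gs2_B4 they were -0.1065 and 0.038 for Timp1 and -0.0764 and 0.0337 for Timp2, and in gs1_B11 -0.0005 and 0.7292 for Mmp10 and -0.001 and 0.1188 for Timp2. They were -0.1411 and 0.2957 for Mmp13 in gs2_F6, -0.0921 and 0.0002 for Mmp14 in gs1_B4, and in gs1_C8 -0.3355 and 0.1693 for Mmp9 and -0.0268 and 0.101 for Timp2. With leflunomide they were -0.1312 and 0.135 for Mmp13, -0.1218 and 0.0688 for Mmp14 and -0.0483 and 0.1028 for Timp2.

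Over all genes, 351 were called with leflunomide, against 767 with DESeq2, 2816 with voom, 957 without a filter, 2532 with all libraries and 10 to 1583 on leaving out 1. Between Drp1 and Fis1 clones DESeq2 gave 9 in place of 0. Between Drp1 and Mff clones 1 gene was called, against 225 with DESeq2, 0 with voom, 34 without a filter and 0 to 29 on leaving out 1 clone, and between Fis1 and Mff clones 1, against 399, 0, 46 and 0 to 30. Depth limits Mmp13 and Timp3 most, and intervals from 3 libraries of 1 clone do not cover the spread between knockouts.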
